A study of Mus musculus with 8 samples.

Results

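The 35 genes described here encode glutamate receptors and the auxiliary subunits that travel with them. They were chosen by name, as AMPA, NMDA, kainate, delta and metabotropic receptor genes with AMPA and kainate auxiliary subunits. The choice was made with earlier results of these data known. All 35 had a row among the 15978 rows of the authors' deposited table. RNA sequencing covered the brains of 8 males, all SJL/Bl6. In 5 C9-BAC mice the genome carried a BAC (bacterial artificial chromosome, which holds a long insert of cloned DNA) bearing human C9ORF72 and 500 G4C2 repeats, and 3 mice were wild-type. The transgene was added to a mouse genome that has its own C9orf72 gene. The labels give no age, brain region or litter. The comparison asks how the brain transcriptome differs with the transgene, whose repeat expansion causes amyotrophic lateral sclerosis and frontotemporal dementia in people.

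Glutamate is the main excitatory transmitter of the brain. AMPA receptors carry most of the fast synaptic current, NMDA receptors admit calcium and trigger plasticity, kainate receptors modulate transmission on both sides of the synapse, and metabotropic receptors act through G proteins. Auxiliary subunits set how AMPA and kainate receptors are trafficked and how fast they close, and calcium entry through glutamate receptors has long been studied as a source of damage to motor neurons.

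The channel-forming members share a short coding element, the lurcher motif at the end of the third membrane segment, which helps form the gate of the channel. It was found in the transcripts of 15 of the 16 ionotropic members in the GENCODE vM21 annotation (GRCm38), each time inside a single coding exon. The stretches below run 5′ to 3′ along the mRNA, with the 24 bases of the motif in capitals and 18 bases on each side in lower case. They are shown for 4 members, because base composition is a sequence property that is set against the fold change order described below. Grik4 and Grik2 are the ends of that order, and Grin1 and Gria2 lie inside it. Grin2b and Grin2c, with transcripts of 51.4% and 62.1% GC, stand above Grin1 in the order and are not shown.
Grin1: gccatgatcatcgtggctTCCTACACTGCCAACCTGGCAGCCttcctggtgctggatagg
Grik4: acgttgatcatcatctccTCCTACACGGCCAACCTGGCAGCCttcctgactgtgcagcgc
Grik2: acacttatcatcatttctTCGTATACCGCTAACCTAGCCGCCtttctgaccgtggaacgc
Gria2: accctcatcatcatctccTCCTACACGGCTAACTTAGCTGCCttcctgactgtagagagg
The Grin1 stretch lies in exon 14 at chr2:25297184-25297243, the Grik4 stretch in exon 17 at chr9:42543854-42543913, the Grik2 stretch in exon 14 at chr10:49240675-49240734 and the Gria2 stretch in exon 12 at chr3:80702554-80702613, all on the minus strand. Among the 15 subunits the 24 bases took 14 versions, and only Grik3 and Grik5 shared all 24. Over the 60 bases shown, Grin1 matched Gria2 at 42 positions, and the closest pair was Grik4 with Grik5 at 56. The GC content of the 60 bases was 58.3% in Grin1 and 51.7% in Gria2, a narrower gap than over the whole transcripts, which held 59.7% and 36.8% GC.

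None of the 35 genes passed a DESeq2 adjusted p of 0.05 in C9-BAC against wild-type brain in the authors' deposited table, where 0% of all rows did. At an unadjusted p under 0.05 there were likewise 0 of 35 members, against 1.5% of all rows, and at an unadjusted p under 0.1 there was 1, the NMDA subunit gene Grin2b, against 3.65%. After the Wald statistic (log2FC over its SE) was rescaled to its median and MAD over the table, 1 member, Grin2b, was under 0.05, against 4.95% of rows. With GC content and transcript length fitted out and the residual statistic also scaled by its MAD, there were 2, Grin2b and Grik4, against 6.11%. Scaling by the MAD itself largely sets the shares of 4.95% and 6.11%, unlike the 1.5% of the deposited test. Grin2b had a log2FC of 0.13 both before and after the fit, and the parts of fit and scaling in these counts were not separated. The members' log2 fold changes (log2FC, given with the standard error, SE) ran from -0.15 to 0.15 in the authors' deposited table, and 27 of the 35 were smaller in size than their own standard error. That count was not made over all rows. An unadjusted DESeq2 p over 0.5 belonged to 54.3% of members, against 61.5% of all rows. The DESeq2 adjusted p was 0.9997 for every member in the authors' deposited table, which is also the lowest in the table. No source used here names the numerator of the log2FC, so each sign is given as deposited and says nothing of which genotype was higher. The table holds a single comparison and no value per mouse, so levels in each mouse are not shown. In bulk brain RNA, fewer cells of a type and less RNA per cell cannot be told apart.

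Positive log2FC values belonged to 23 of the 35 members (65.7%) and negative ones to 12 in the authors' deposited table, against 47.4% positive and 52.6% negative over all rows. The median log2FC was 0.028 for the members and -0.0044 for all rows in the authors' deposited table. A log2FC of at least 0.1 in size was reached by 8 members (22.9%), 6 positive and 2 negative, against 17.4% of all rows. The sign counts are a description only, as genes that are transcribed in the same neurons are not independent of each other.

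**Figure D1:**
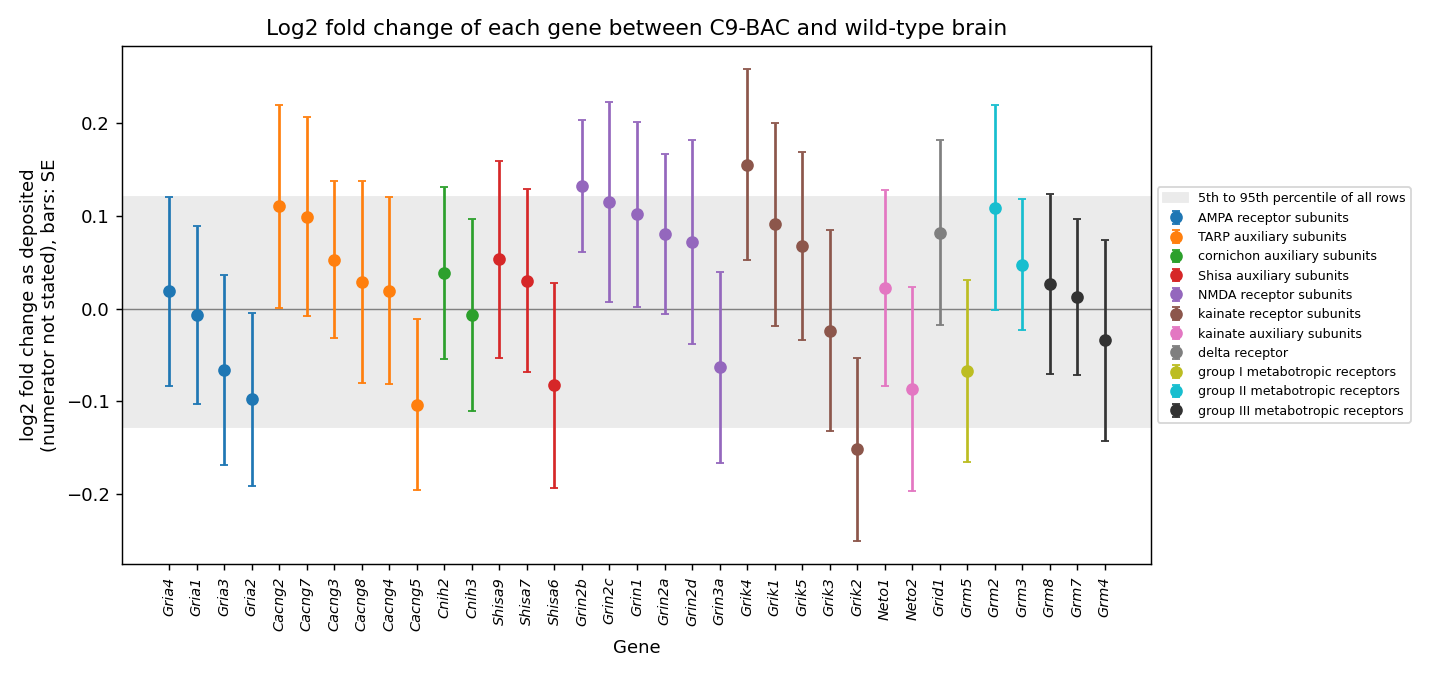
Log2 fold change as deposited (vertical axis, numerator not stated) of each of the 35 genes (horizontal axis), coloured by role, with bars of 1 standard error. The grey band spans the 5th to 95th percentile of all rows, -0.13 to 0.12; Grin2b and Grik4 lie above it, Grik2 lies below it, and 27 of the 35 bars cross 0.

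Levels of different genes are compared here only per kilobase, as mean normalised counts over all 8 samples divided by the length of the longest listed transcript. Before that division the members' mean normalised counts ran from 47.7 for Cacng4 to 8274 for Gria2 in the authors' deposited table, where the median of all rows was 170.8. Every member had a mean normalised count of at least 10 and 32 had at least 100, and together they made up 0.587% of the summed mean normalised counts. Per kilobase, Grin1 stood first at 1104 and Grin2d last at 12.1, but by the shortest listed transcript Gria2 stood first at 2055 and Grin1 second at 1229. No spread between mice can be given for these levels, so neighbours in the order cannot be said to differ. The transcript length also bears on them: for Grin2a and Grin2b the longest annotated transcript gave 254.9 and 262.6 per kilobase, where the longest listed one gave 848.9 and 844.2.

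**Figure D2:**
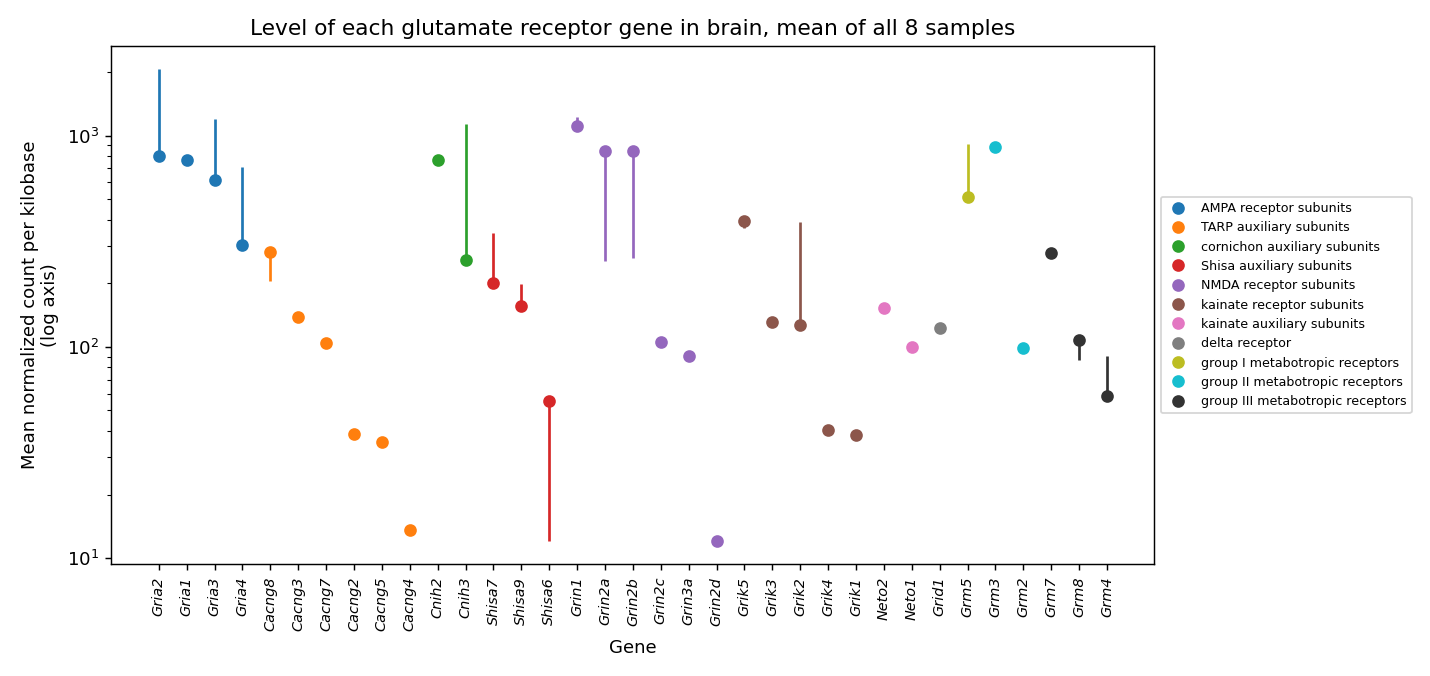
Mean normalised count per kilobase over all 8 samples (vertical log axis) of each gene (horizontal axis), coloured by role. Dots use the longest listed transcript, and vertical lines span the values with other transcript lengths; by the dots Grin1 is highest at 1104 and Grin2d lowest at 12.1, and the lines are long for Cnih3, Shisa6, Grin2a and Grin2b.

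The NMDA receptor genes were positive in 5 of 6 cases, with a median log2FC of 0.09 in the authors' deposited table, and none passed. Every NMDA receptor contains the obligatory subunit encoded by Grin1, which had a mean normalised count of 4680 and a log2FC of 0.10 ± 0.10 (SE; DESeq2 p = 0.307) in the authors' deposited table. Grin2b, whose subunit dominates early in development and binds glutamate, had a mean normalised count of 6318 and the smallest p of all members, with a log2FC of 0.13 ± 0.07 (SE; DESeq2 p = 0.065) in the authors' deposited table. This corresponds to a ratio of 1.10 on the deposited scale. Its counterpart in mature cortical synapses, Grin2a, had a log2FC of 0.08 ± 0.09 (SE; DESeq2 p = 0.351) in the authors' deposited table. The level per kilobase of Grin2a was 1.01 times that of Grin2b. Grin2c, known mainly from cerebellar granule cells and astrocytes, was at 105.1 per kilobase and had a log2FC of 0.11 ± 0.11 (SE; DESeq2 p = 0.285) in the authors' deposited table. Grin2d, found mostly in interneurons and the brainstem, gave 0.07 in the authors' deposited table. The only negative NMDA gene was Grin3a, whose subunit lowers calcium entry, at 90.4 per kilobase and with a log2FC of -0.06 in the authors' deposited table. The count of 5 positive and 1 negative was the same after GC content and transcript length were fitted out.

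The AMPA receptor genes had 1 positive and 3 negative values and a median log2FC of -0.04 in the authors' deposited table. Gria2, whose edited subunit makes the receptor nearly impermeable to calcium, was the most abundant AMPA gene at 797.8 per kilobase, which was 32.1% of the AMPA subunit total. In the authors' deposited table its log2FC was -0.10 ± 0.09 (SE; DESeq2 p = 0.295). Gria1, the subunit gene best known for activity-dependent insertion at synapses, was at 767.9 per kilobase and had a log2FC of -0.0071 in the authors' deposited table. Gria3 and Gria4, at 613.5 and 304.9 per kilobase, had log2FC values of -0.07 and 0.02 in the authors' deposited table. With GC content and length fitted out, AMPA genes had 2 positive and 2 negative values, Gria1 being the gene whose sign turned. A difference between AMPA and NMDA genes was not tested.

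The TARP genes encode transmembrane AMPA receptor regulatory proteins, which bind AMPA receptors and modulate them in ways that differ between members. Of the 6 members, 5 were positive and 1 was negative in the authors' deposited table. Cacng8, the main hippocampal TARP gene, led per kilobase at 281.8, followed by the cortical Cacng3 at 138.5 and by Cacng7 at 104. Cacng8 had a log2FC of 0.028 ± 0.11 (SE; DESeq2 p = 0.793) in the authors' deposited table. Cacng2, which encodes stargazin, was low at 38.7 per kilobase and had a log2FC of 0.11 ± 0.11 (SE; DESeq2 p = 0.317) in the authors' deposited table. The negative TARP gene was Cacng5, with a log2FC of -0.10 ± 0.09 (SE; DESeq2 p = 0.261) in the authors' deposited table. Cacng5 lies 79.9 kb from Cacng4 on chromosome 11, whose log2FC was 0.02 in the authors' deposited table. Cacng7 and Cacng8 lie 25.8 kb apart on chromosome 7, and Cacng7 had a log2FC of 0.10 in the authors' deposited table. With GC content and length fitted out, 4 TARP genes were positive and 2 negative, as Cacng8 turned.

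The other AMPA auxiliary genes had log2FC values between -0.08 and 0.05 in the authors' deposited table. Cornichon proteins slow AMPA receptor deactivation, and Cnih2 was the highest auxiliary gene by the longest listed transcript at 767.6 per kilobase, with a log2FC of 0.04 ± 0.09 (SE; DESeq2 p = 0.679) in the authors' deposited table. Cnih3, at 256.9 per kilobase, gave -0.0069 in the authors' deposited table. By the shortest listed transcript Cnih3 was at 1139 per kilobase, above Cnih2. Of the Shisa genes, whose products modulate desensitisation, Shisa7 was highest at 199.8 per kilobase and had a log2FC of 0.03 ± 0.10 (SE; DESeq2 p = 0.763) in the authors' deposited table. Shisa9 and Shisa6 were at 156.1 and 55.6 per kilobase, and the authors' deposited table gave them log2FC values of 0.05 and -0.08.

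The kainate receptor genes held both ends of the members' fold change order. Grik4, which encodes a high-affinity subunit that needs a partner, had the highest log2FC of the members at 0.15 ± 0.10 (SE; DESeq2 p = 0.132) in the authors' deposited table. Grik2, the gene of a principal pore subunit, had the lowest at -0.15 ± 0.10 (SE; DESeq2 p = 0.124) in the authors' deposited table. On the deposited scale these are ratios of 1.11 and 0.900. Grik5, also of the high-affinity class, was the most abundant per kilobase at 393.8, which was 53.9% of the kainate subunit total, and had a log2FC of 0.07 ± 0.10 (SE; DESeq2 p = 0.508) in the authors' deposited table. Grik3 and Grik2 were at 131.5 and 127 per kilobase, and Grik4 and Grik1 at 40.4 and 38.4. By the shortest listed transcript Grik2 was at 388.4 per kilobase, close to the 393.8 of Grik5, so the share of Grik5 rests on the longest listed transcript. For Grik3 and Grik1 the authors' deposited table gave log2FC values of -0.02 and 0.09.

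Neto proteins bind kainate receptors and slow their kinetics. Neto2 was at 153.2 per kilobase and had a log2FC of -0.09 ± 0.11 (SE; DESeq2 p = 0.432) in the authors' deposited table, and Neto1, at 100.3 per kilobase, gave 0.02. The delta receptor gene Grid1, whose product acts in synapse formation rather than as a typical glutamate-gated channel, was at 123.4 per kilobase with a log2FC of 0.08 ± 0.10 (SE; DESeq2 p = 0.413) in the authors' deposited table.

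Metabotropic receptor genes had 4 positive and 2 negative values in the authors' deposited table. Grm3, a group II receptor that is prominent in astrocytes as well as neurons, was at 883.6 per kilobase, second by the longest listed transcript and sixth by the shortest, and had a log2FC of 0.05 ± 0.07 (SE; DESeq2 p = 0.505) in the authors' deposited table. Grm2, the other group II gene and a mainly presynaptic autoreceptor, was at 99.1 per kilobase with a log2FC of 0.11 ± 0.11 (SE; DESeq2 p = 0.323) in the authors' deposited table. Grm5, a group I receptor that couples to phospholipase C at the edge of the postsynaptic density, was at 510.5 per kilobase with a log2FC of -0.07 ± 0.10 (SE; DESeq2 p = 0.492) in the authors' deposited table. The presynaptic group III genes were led by Grm7 at 278.6 per kilobase, with a log2FC of 0.01 ± 0.08 (SE; DESeq2 p = 0.880) in the authors' deposited table. Grm8 and Grm4, at 108.2 and 58.3 per kilobase, gave 0.03 and -0.03 in the authors' deposited table.

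The sign of the members ran with the GC content of their transcripts, as it did across the table. Among the 35 members the Wald statistic had a Spearman's rho of 0.403 and a Pearson's r of 0.429 with transcript GC content, and over 13627 rows with a mean normalised count of at least 10 rho was 0.417 and r was 0.408. These correlations are across genes measured in the same 8 libraries, and genes are not independent replicates. In the quintile of the table lowest in GC content there were 7 members, 2 positive and 5 negative, where 23.1% of rows were positive. They were Gria2, Gria3, Gria4, Grik2, Grm5, Neto1 and Neto2. In the highest quintile there were 11 members, 9 positive and 2 negative, where 66.0% of rows were positive. Members between these quintiles did not follow the order: all 5 members in the second-lowest quintile were positive, where 37.3% of rows were. With GC content and transcript length fitted out over all rows, 22 of 35 members (62.9%) were positive against 49.8% of rows, the members' median was 0.016 on the log2 scale, and 32 members kept their sign. What gives rise to the relation with GC content was not tested.

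**Figure D3:**
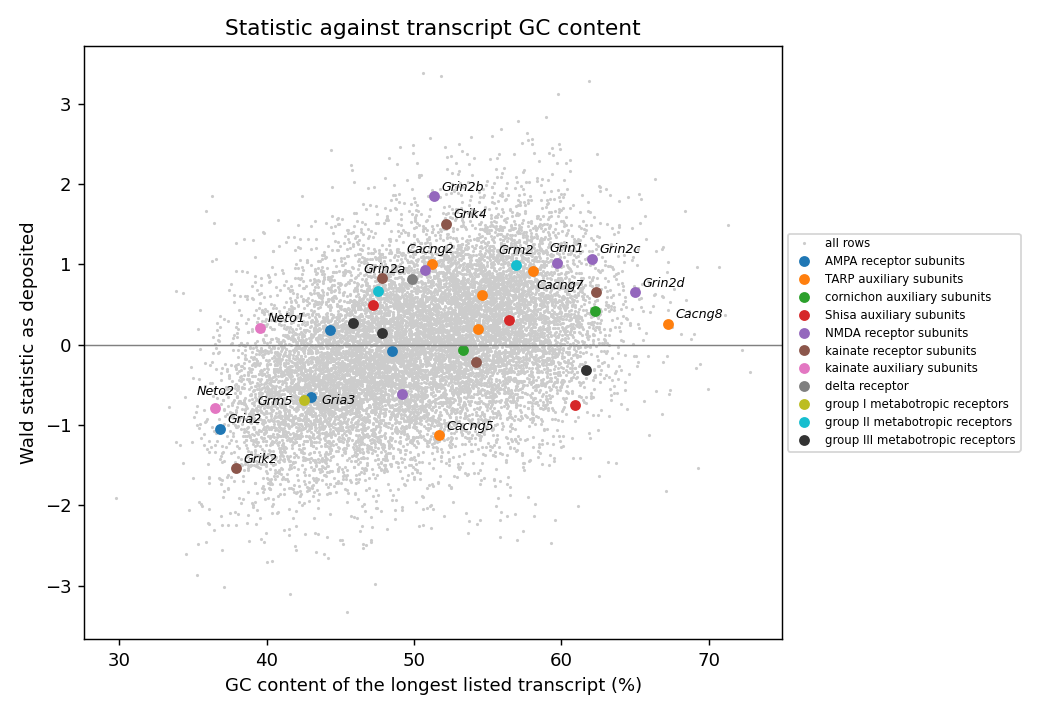
Wald statistic as deposited (vertical axis) against the GC content of the longest listed transcript in percent (horizontal axis), with members coloured by role and all rows with a mean normalised count of at least 10 in grey. Gria2, Grik2 and Neto2 lie at low GC content and below 0, and 9 of the 11 members in the highest GC quintile lie above 0.

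Standard errors did not follow abundance in a simple way. In the authors' deposited table they ran from 0.071 for Grm3 to 0.11 for Shisa6 among the members, and 6 members lay within 0.001 of 0.11, the highest value anywhere in the table. Set against the 500 rows nearest in mean normalised count, the standard error of Cacng3 was above that of only 0.2% of rows, those of Grm3 and Cacng5 above 1.4%, and that of Grin2b, which so near the top of the range had only 409 such rows, above 3.42%. What sets this ceiling was not tested, and no source used here names a step that would. A low standard error is therefore not read as a precise estimate, and the fold changes set no upper bound on the differences.

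**Figure D4:**
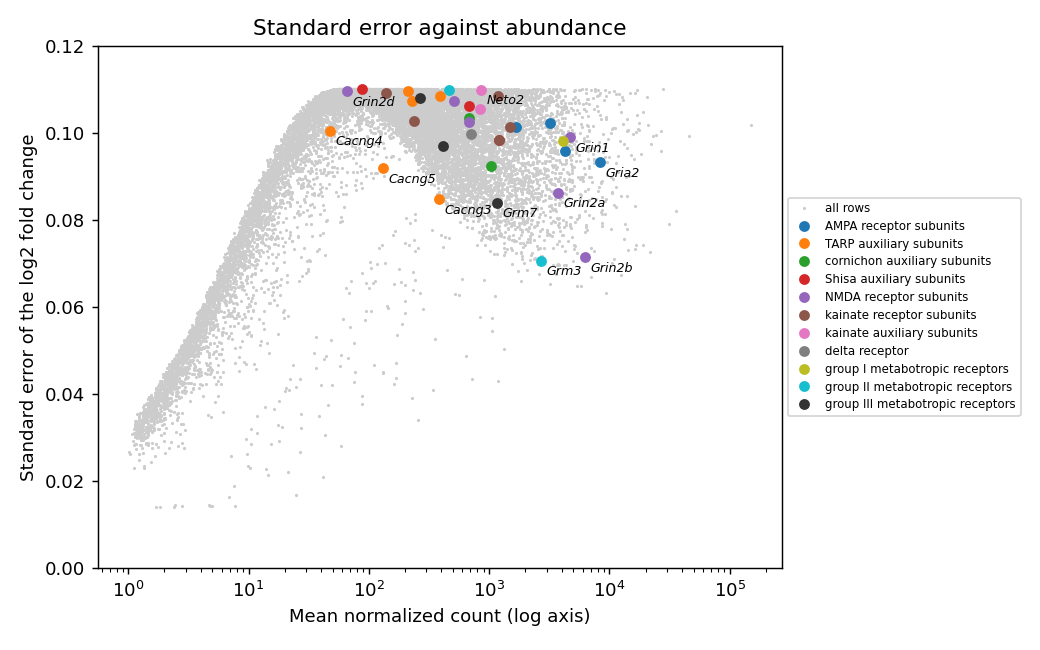
Standard error of the deposited log2FC (vertical axis) against the mean normalised count (horizontal log axis), members coloured by role and all rows in grey. All rows lie under a ceiling of 0.11; Cacng3, Cacng5, Grm3 and Grin2b lie near the lower edge of rows of like abundance.

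Other genes of glutamate signalling came from lists chosen by function, with earlier results of these data known. Of these 46, 0 passed in the authors' deposited table by the DESeq2 adjusted p, where 0% of all rows did. At an unadjusted DESeq2 p under 0.05 there were also 0, against 1.5% of all rows. Positive values belonged to 26 and negative ones to 20, against 47.4% and 52.6% of all rows. Genes that traffic and anchor receptors had 17 positive and 8 negative values and a median log2FC of 0.06 in the authors' deposited table, and 20 and 5 with GC content and length fitted out. Among them Lrrtm1, a postsynaptic adhesion gene, had a log2FC of 0.16 ± 0.10 (SE; DESeq2 p = 0.0994) in the authors' deposited table, and Dlg4, the gene of the scaffold PSD-95, one of 0.13 ± 0.09 (SE; DESeq2 p = 0.150). Genes of glutamate release, uptake and metabolism had 5 positive and 10 negative values and a median of -0.04 in the authors' deposited table. This did not hold with GC content and length fitted out, where 8 were positive and 7 negative with a median of 0.0019. Slc38a2, a glutamine transporter gene, had a log2FC of -0.16 ± 0.10 (SE; DESeq2 p = 0.129) and the vesicular glutamate transporter gene Slc17a6 one of -0.15 ± 0.11 (SE; DESeq2 p = 0.154) in the authors' deposited table. Genes that supply the NMDA co-agonists serine and glycine had 4 positive and 2 negative values (3 and 3 with GC content and length fitted out), with the transporter genes Slc7a10 at 0.10 and Slc6a9 at -0.06 in the authors' deposited table.

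Markers of the cells that carry these receptors were described in the same way, from lists also chosen with earlier results of these data known. All 10 markers of glutamatergic neurons and all 8 of astrocytes averaged at least 100 normalised counts in the authors' deposited table, while 6 of 9 cerebellar markers had a row and 2 reached 100. Glutamatergic neuron markers had 6 positive and 4 negative values with a median log2FC of 0.03 in the authors' deposited table, led by the kinase gene Camk2a at 0.17. GABAergic neuron markers had 2 positive and 8 negative values with a median of -0.07 in the authors' deposited table, led by Dlx6os1 at -0.20 (DESeq2 p = 0.0556), with the glutamate decarboxylase genes Gad2 and Gad1, named after their values were seen, both at -0.19. The other GABAergic markers ran from Pvalb at -0.15 to Sst at 0.088, with Slc32a1 at -0.0035 and Vip at 0.0094. Astrocyte markers had 1 positive and 7 negative values and a median of -0.04 in the authors' deposited table, led by Slc4a4 at -0.13. With GC content and length fitted out, the astrocyte counts became 2 and 6 with a median of -0.016. The GABAergic counts stayed at 2 and 8 with a median of -0.09, and the glutamatergic ones became 7 and 3 with a median of 0.025. Endothelial and mural markers went from 6 positive and 2 negative to 8 and 0. The remaining marker lists had medians from -0.017 for oligodendrocytes to 0.06 for endothelial and mural cells in the authors' deposited table. Genes of smallest p in 5 of these lists were Drd1 at -0.03 for striatal neurons, Zic1 at -0.24 for cerebellar neurons, Mog at 0.14 for oligodendrocytes, Cspg4 at 0.19 for their progenitors and Pecam1 at 0.17 for endothelium in the authors' deposited table. Over all rows, 47.4% of values were positive as deposited and 49.8% with GC content and length fitted out. No marker passed at a DESeq2 adjusted p of 0.05, where 0% of all rows did. The part of cell composition in the members' values was not tested.

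**Figure D5:**
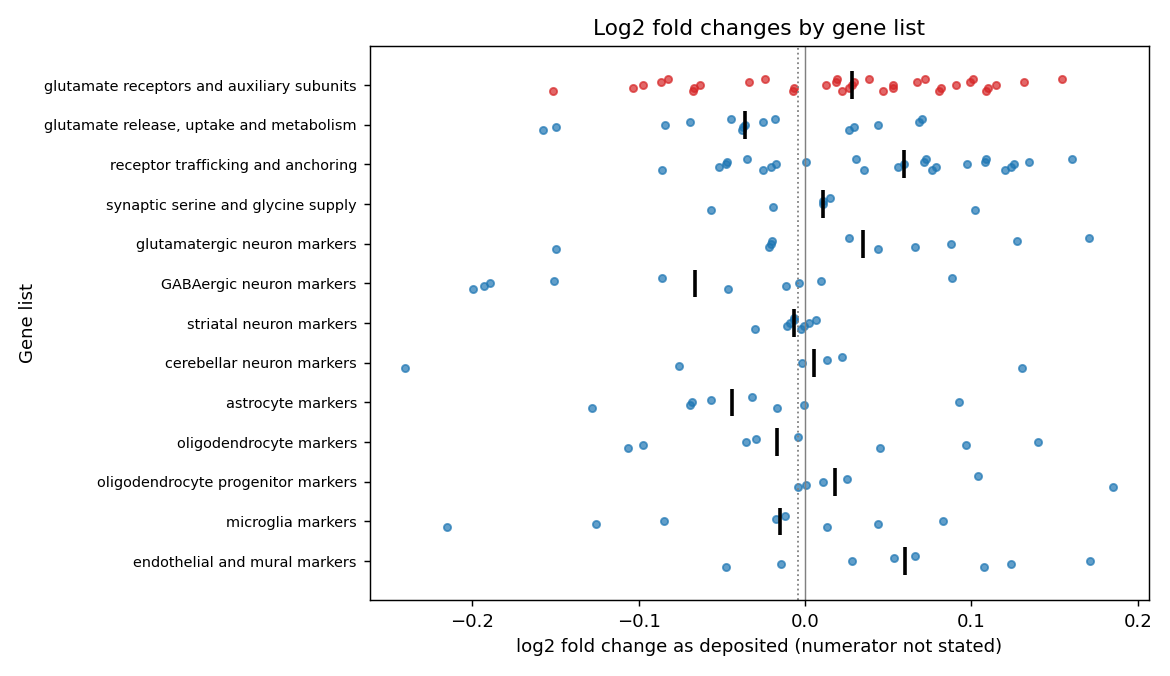
Log2 fold change as deposited (horizontal axis, numerator not stated) of every gene in each list (vertical axis), with the members in red, other lists in blue, a black bar at each list's median and a dotted line at the median of all rows, -0.0044. The members' median is 0.028, that of the GABAergic neuron markers -0.07 and that of the receptor trafficking genes 0.06.

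The members lay on 18 chromosomes, with 7 on chromosome 7. Rows that overlap a member were few: Zfp574 overlaps one edge of Grik5, Yif1a one edge of Cnih2, and Ppp3r2, with a mean normalised count of 13.4 in the authors' deposited table, lies within Grin3a. Libraries were strand-specific, but no source used here says whether the counting used strand, so reads of these pairs may not be fully separated. Promoter windows of 300 bases around annotated starts, from RefSeq on GRCm38.p6, were found for 22 members with 27 windows. Their median GC content was 63.7%, against 52.7% over all 32851 windows, and their ratio of observed to expected CpG was 0.629 against 0.384. On either strand the letters TATAAA were in 0 of the 27 windows, against 13.6% of all windows, and TGACGTCA in 0 against 1.79%. The letters CACGTG were in windows of Cnih3 and Grin1, which is 7.41% of the windows against 7.15% of all.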

How the data were processed

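Brain RNA of 5 C9-BAC and 3 wild-type mice was sequenced from strand-specific libraries made without poly(A) selection, per the labels' protocols. Trimmomatic, Bowtie2, DESeq and DESeq2 were used with build mm10 (GRCm38), per the submitters' processing notes, which give no versions; the read counter, the annotation and any filter were not stated there. The authors deposited 1 DESeq2 comparison of both genotypes. Per the file headers it holds a mean normalised count (a signal: the authors' average of size-factor-scaled counts over samples), a log2 fold change with its standard error, the Wald statistic (a score), and a p-value with its adjusted p-value. The Wald statistic equalled the deposited log2 fold change over its standard error to within 8.27e-07 and the adjusted p the Benjamini-Hochberg (BH) adjustment over 15944 rows to within 5.33e-12. The depth of each sample and the spread between mice were not analysed here. The labels do not say outright that each sample is a separate animal; if any are not, the p-values reflect technical spread.

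Row names were matched to symbols through RefSeq accessions (GRCm38.p6) or GENCODE vM21, which gave a symbol to 15930 of 15978 rows. Transcript GC content and length came from GENCODE vM21 for 99.3% of rows and 35 of 35 members. Protein sequences were not used here. One marker gene and one coding stretch are not reported here. Residuals on GC content and log2 length came from a linear fit over all rows, and a rescaled statistic from its median and MAD. Both were run on simulated data with a linear GC term and planted shifts far larger than any member's statistic. That run cannot show whether differences of the members' size would be found. Full values are given for the 10 members of smallest p and the most abundant member of each role class. The members and lists were chosen with earlier results of these data known. Python 3.11.15, pandas 2.3.3, numpy 2.4.6 and scipy 1.17.1 were used.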

Additional observations from a re-analysis of the deposited data

How the results depend on the processing

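No paired analysis was possible because the genotypes share no replicate numbers and the table holds no value per sample; fits without 1 mouse could not be run for the same reason. The count of 0 members past an adjusted p of 0.05 held when BH was taken over 13704 rows with a mean normalised count of at least 10, and with the statistic rescaled to its median and MAD. It also held with GC content and length fitted out and the residual statistic scaled by its MAD. There 5 rows of the table passed, and the lowest member was at a BH-adjusted p of 0.521. At an unadjusted p under 0.05 the 0 members became 1 with the rescaled statistic (Grin2b) and 2 with the fitted and scaled one (Grin2b and Grik4). No p was taken from the fit without the scaling, so their parts in this count are not separated. At an unadjusted p under 0.1 the deposited statistic gave 1. The 23 positive and 12 negative signs became 22 and 13 with GC content and length fitted out, where the median log2 fold change moved to 0.016 from 0.028, Cnih2 to -0.014, Cacng8 to -0.046 and Gria1 to 0.0053. Centring on the median of all rows turned 0 signs. Levels per kilobase moved by over 1.5 times for 8 members with the shortest listed transcript, 2 with the mean length and 3 with the longest annotated transcript of the gene, the last chosen after seeing the data. Depth per sample is unknown, so no size of difference is excluded.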

Other observations

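Members differed widely in the untranslated part of their listed transcripts. The 3′ untranslated region ran from 0 to 7268 bases with a median of 2253. The longest were those of Gria2 (7268 bases), Grik2 (6275), Grik3 (6082) and Neto1 (5819). In the authors' deposited table the log2 fold changes were negative for Gria2, Grik2 and Grik3 (-0.02) and positive for Neto1 (0.02). Across the 35 members the Wald statistic had a Spearman's rho of -0.389 and a Pearson's r of -0.476 with the length of this region. With GC content, rho was 0.384 for the coding part of 35 members and 0.42 for the 3′ untranslated region of the 32 members that have one. These values come from the same 8 libraries, GC content and length are themselves related in these transcripts, and they are descriptions without a test. The listed transcripts of Grin2a, Shisa6 and Cacng8 hold no 3′ untranslated region, and they enter the correlation with its length at 0 bases. The longest annotated transcripts had 14634 bases for Grin2a, 24060 for Grin2b and 7252 for Shisa6, against 4395, 7484 and 1578 listed. Of these genes, Grin2a and Grin2b had positive log2 fold changes and Shisa6 a negative one. The correlation with length was taken from the listed transcripts only and was not recomputed with the longest annotated ones.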
